A study of Mus musculus with 24 samples.

Results

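Neuronal and synaptic transcripts were followed through 24 bulk RNA-seq libraries of fluorescence-sorted mouse astrocytes. The 34 genes were listed by name, as general neuronal genes (17), genes of excitatory neurons and synapses (9) and genes of inhibitory neurons (8), and all 34 were found among the 24421 gene names of each library. Cells came from C57BL6 mice aged 20 weeks and from 4 regions, brainstem, cortex, hippocampus and olfactory bulb. Mice labelled knockout (here KO-labelled) were NFIAfl/fl; Aldh1l1-CreER; Aldh1l1-GFP, and controls were NFIAfl/fl; Aldh1l1-GFP, so that both carried the floxed Nfia allele and the GFP reporter, and the CreER recombinase was in the KO-labelled mice only. Aldh1l1 regulatory sequence drives both the reporter and the tamoxifen-dependent recombinase in astrocytes. The labels give neither a tamoxifen dose nor a time after it. Each of the 8 groups of region and genotype held 3 libraries. No label ties a library to an animal, so p-values measure the spread between these libraries, which may be technical.

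Neurons pass signals at synapses, where vesicles loaded with transmitter fuse with the presynaptic membrane and receptors on the postsynaptic side respond. Glutamatergic neurons load vesicles through VGLUT1 or VGLUT2, and GABAergic neurons make GABA with the glutamate decarboxylases GAD67 and GAD65 and load it through a shared vesicular transporter. In the forebrain VGLUT1 prevails, whereas many brainstem nuclei use VGLUT2, and the olfactory bulb is rich in GABAergic granule and periglomerular interneurons. Neurofilaments fill thick myelinated axons, which are frequent in brainstem tracts. The reads below are counted per gene, and the cell they came from was not tested. In bulk libraries, fewer cells of a type and less RNA per cell cannot be told apart.

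Recovered reads ranged from 1090777 in the brainstem KO-labelled library 3 to 24297573 per library. The 10 astrocyte markers made up 1.86% to 9.85% of the reads and none of them was at 0 in any library. Nfia, the targeted gene, went against the labels: it stood at 7457, 7904 and 8566 normalised reads in OB KO-labelled libraries, against 4025, 4532 and 4987 in OB controls, and the KO-labelled libraries lay above every control in all 4 regions, with an average log2 difference of 0.90 (limma, adjusted p = 1.93e-07). The labels do not say which exons are floxed, and reads outside them would not report a deletion. Why Nfia was higher in the KO-labelled libraries was not tested, and the groups are called KO-labelled throughout. Choroid plexus markers (5 genes) summed to 3425 to 9055 normalised reads in HC KO-labelled libraries and 105288 to 218220 in HC controls. All 5 were lower in the HC KO-labelled libraries, and 4 were called lower (limma, adjusted p under 0.05), where 2.51% of all genes were called. Rn45s, a ribosomal RNA precursor, took 13.5% to 25.6% of the reads in all cortical and brainstem libraries. It took 20.8% in OB KO-labelled library 3 and 0.966% to 3.33% in the remaining 11. Levels below are recovered reads divided by size factors computed jointly over the 24 libraries, named normalised reads, and OB, HC, CX and BS stand for the 4 regions.

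The neuronal genes were a small part of every library. Together the 34 genes held 0.129% to 0.32% of the reads. The 17 general genes summed to 5146 to 9062 normalised reads in all 24 libraries, with overlapping ranges in the 4 regions. The 9 excitatory genes differed more by region. They summed to 842, 798 and 629 normalised reads in BS KO-labelled libraries and 744, 649.6 and 952 in BS controls. In cortex the excitatory sum was 5227, 4744 and 5731 in KO-labelled libraries and 6441, 6099 and 7281 in controls, so every brainstem library was below every cortical one. In hippocampus it was 5851, 6823 and 4249.9 in KO-labelled libraries and 7655, 6796 and 3837 in controls, and in olfactory bulb 2689, 2653 and 4072 in KO-labelled libraries and 2346, 3361 and 2317 in controls.

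The sum of the inhibitory genes was highest in olfactory bulb, and the sums of the other 3 regions overlapped. Single genes did not all follow the sum. Of the 7 tested, 4 were higher and 3 lower in olfactory bulb than the mean of the other 3 regions, in each genotype. The 8 genes summed to 731, 559 and 721 normalised reads in OB KO-labelled libraries and 1014, 976 and 735 in OB controls, above every library of the other 3 regions. The sums were 308, 314 and 148 in HC KO-labelled libraries and 287, 155 and 115 in HC controls, 274, 220.1 and 169.7 in CX KO-labelled libraries and 175, 266 and 268 in CX controls. They were 206, 197 and 194 in BS KO-labelled libraries and 276, 476 and 249 in BS controls. KO-labelled and control libraries did not overlap in the excitatory sum of cortex, nor in the inhibitory sums of olfactory bulb and brainstem. The KO-labelled libraries were lower in these, in olfactory bulb only by 731 against 735. In every other class sum of a region the genotypes overlapped. Of all single genes, 14.4% in cortex, 14% in olfactory bulb and 11% in brainstem did not overlap. Sums over listed genes were not tested, and a few genes carry most of them.

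**Figure D1:**
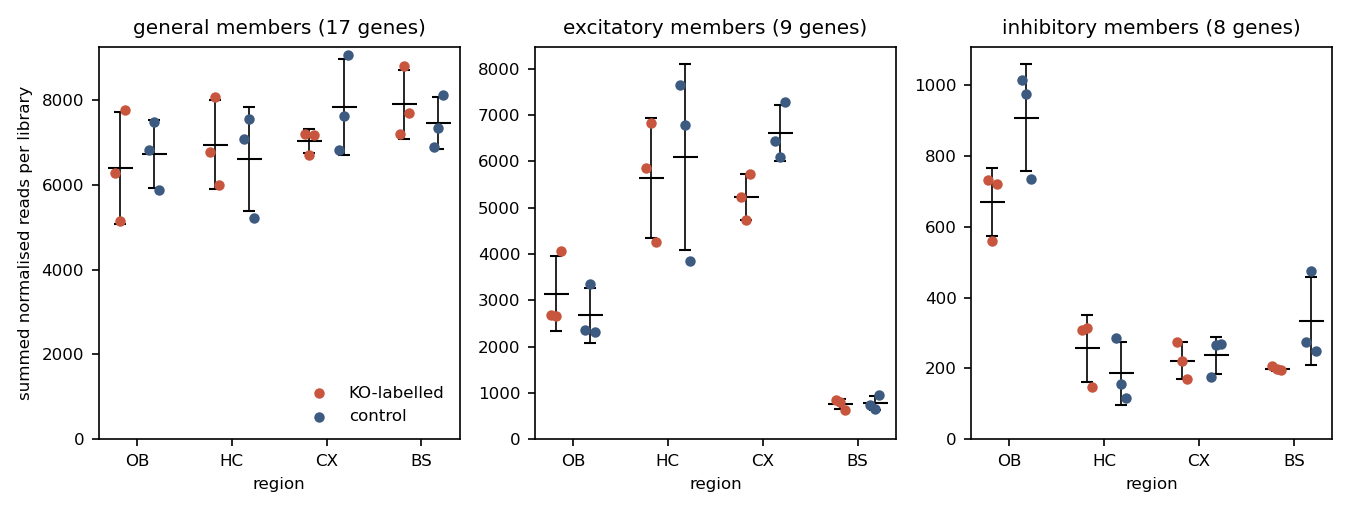
Summed normalised reads of the general (17 genes), excitatory (9) and inhibitory (8) genes in each library, by region, with KO-labelled libraries left of controls; dots are libraries and bars give the mean ± SD (n = 3). The excitatory sum was lowest in brainstem (629 to 952) and the inhibitory sum highest in olfactory bulb (559 to 1014).

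Camk2a, the alpha subunit of the calcium/calmodulin kinase of excitatory synapses, had the highest level per kilobase of exon of all 34 genes in hippocampus and cortex. Its mean was 551 normalised reads per kb in HC KO-labelled libraries and 619.8 in HC controls. It was 537.5 per kb in CX KO-labelled libraries and 686.9 in CX controls. In brainstem Snap25, the plasma membrane SNARE of vesicle fusion, led at 356.9 per kb in KO-labelled libraries and 343.3 in controls. Of the summed normalised reads of the 34 genes, Camk2a made up 32% in HC KO-labelled libraries and 35.9% in HC controls. Its share was 0.806% in BS KO-labelled libraries and 0.708% in BS controls. Map2, the dendritic microtubule-associated protein, was the most even of the abundant genes. It ranged from 1447 to 3690.3 normalised reads over the 24 libraries and was not called in any regional comparison.

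Of the 34 genes, 27 had reads in every library. The other 7 were at 0 in some: Vip in 7 libraries, Pvalb in 5, Calb1 in 4, Calb2 in 3, and Sst, Slc17a6 and Grin2a in 1 each. Vip, the peptide of one interneuron class, never reached 20 normalised reads and was the only gene left out of the tests. The remaining 33 passed the filter of at least 20 normalised reads in at least 3 libraries. Pvalb and Calb2 passed through 1 region only: Pvalb reached 20 in 3 libraries, all from brainstem, and Calb2 in 6 from olfactory bulb and 2 elsewhere. Their regional levels are given below as a description, with no test.

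**Figure D2:**
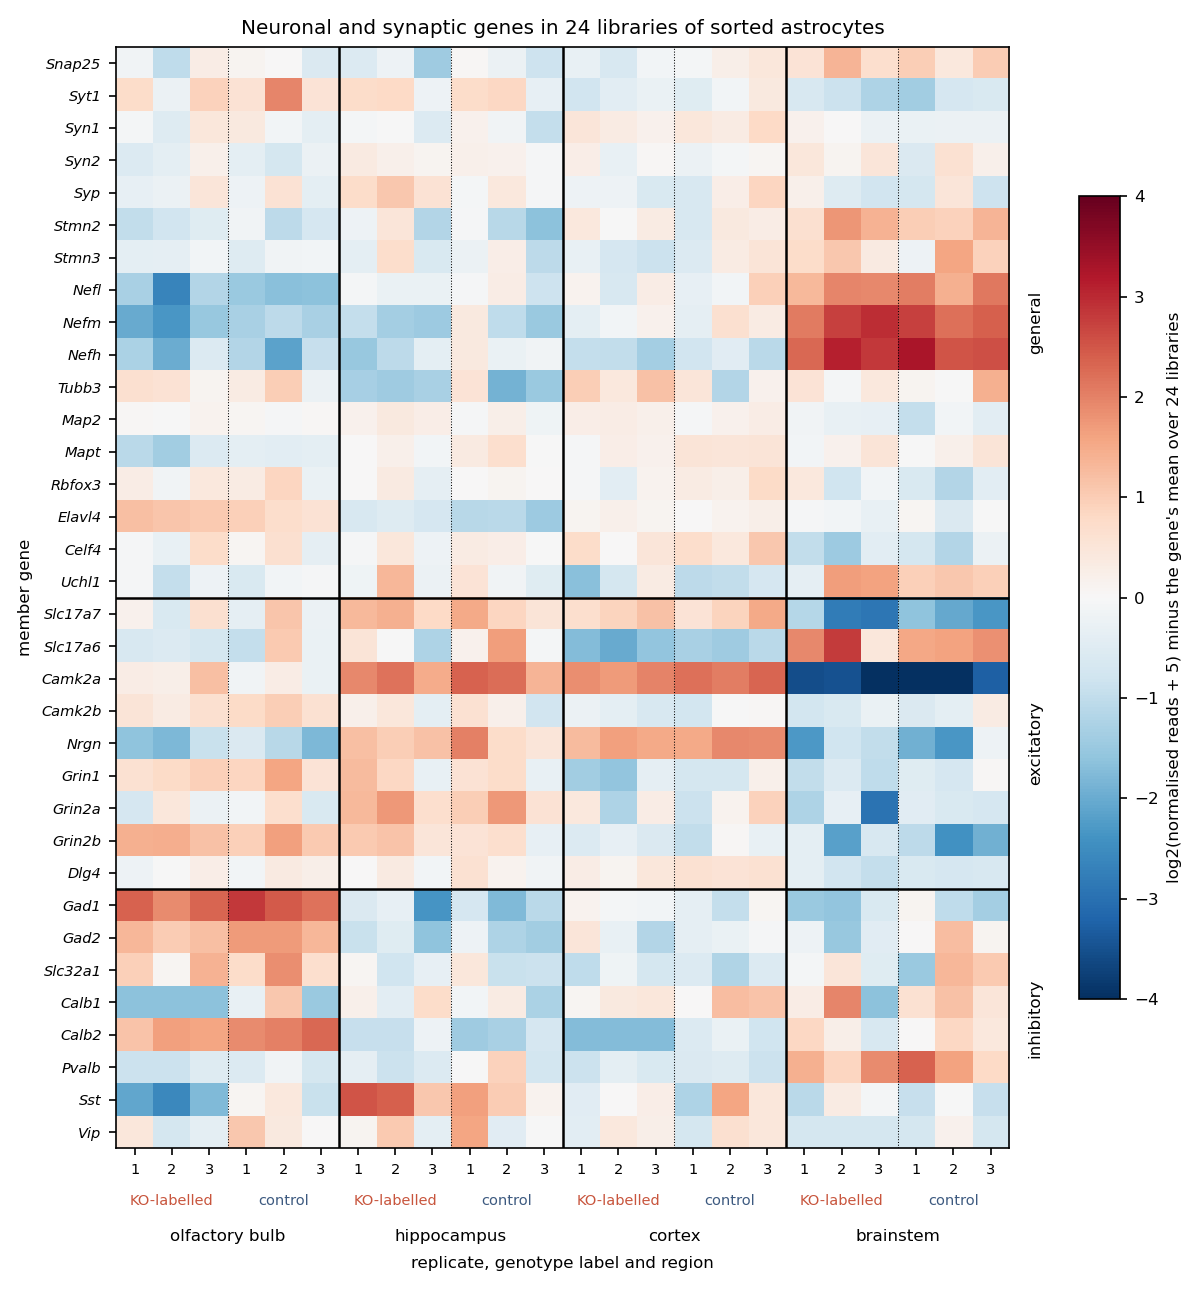
Level of all 34 genes in the 24 libraries as log2(normalised reads + 5) minus the gene's mean, red above and blue below it, with genes in rows by class and libraries in columns by region, KO-labelled left of control. Camk2a is blue in all 6 brainstem libraries (14.2 to 111 normalised reads) and Nefh is red there (172 to 344).

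Regional differences were taken separately in each genotype, so that the means of the 12 KO-labelled and the 12 control libraries share no library. Both came from 1 fit to all 24 libraries, with 1 estimate of the spread per gene. The p-values of the 2 genotypes are therefore not independent. Each region was set against the mean of the other 3 regions of the same genotype, and within a genotype these comparisons share libraries. A gene was called at an adjusted p under 0.05 (limma with Benjamini-Hochberg adjustment over 12756 genes) and an absolute log2 difference above 1. In brainstem 17 of 33 genes were called among KO-labelled libraries, where 10.6% of all tested genes were, and 14 of 33 among controls, where 9.81% were. In olfactory bulb 14 were called among KO-labelled libraries (7.04% of all genes) and 11 among controls (8.58%). In hippocampus 9 were called among KO-labelled libraries (3.03%) and 6 among controls (1.73%), and in cortex 7 among KO-labelled libraries (2.89%) and 5 among controls (3.49%). Without Pvalb and Calb2, which had to differ by region to be tested, the counts of 31 were 16 among KO-labelled libraries and 13 among controls in brainstem, and 13 and 10 in olfactory bulb, in the same order of genotypes. They were 9 and 5 in hippocampus and 6 and 5 in cortex. All of these shares are above the share of all genes. The calls were shared for 32 of 47 among KO-labelled libraries (68.1%) and 32 of 36 among controls (88.9%), each in the same direction. Of the 33 genes, 26 were called in at least 1 regional comparison, 18 in both genotypes, and 7 in none. A call in 1 genotype and not in the other does not show that the genotypes differ; the F test given at the end, over all regions, called 0 of 33. The 7 genes called nowhere were Syn1, Syn2, Map2, Rbfox3, Camk2b, Dlg4 and Slc32a1.

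By direction, the brainstem calls were 9 higher and 8 lower among KO-labelled libraries (6.04% and 4.55% of all genes) and 7 higher and 7 lower among controls (5.56% and 4.26%). Those of olfactory bulb were 6 higher and 8 lower among KO-labelled libraries (3.94% and 3.1%), and 7 higher and 4 lower among controls (4.47% and 4.11%). The hippocampus had 6 higher and 3 lower among KO-labelled libraries (1.12% and 1.91%) and 2 higher and 4 lower among controls (0.729% and 1%). The cortex had 3 higher and 4 lower among KO-labelled libraries (1.32% and 1.58%) and 3 higher and 2 lower among controls (1.76% and 1.72%). On the deposited scale, where the cortical libraries were normalised apart and the median cortical difference of all genes shifted by -0.321 log2, the split moved. It was then 2 higher and 6 lower among KO-labelled cortex, 2 higher and 5 lower among control cortex, and 9 higher and 5 lower among control brainstem.

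Markers of other cells moved with region too. In brainstem the 8 oligodendrocyte markers, none at 0 in any library, summed to 50038 to 111716 normalised reads in KO-labelled libraries and 52993 to 91747 in controls, against 8902 to 40595 in the libraries of the other regions. Of the 8, 7 were called higher among KO-labelled libraries and 6 among controls. In olfactory bulb 6 of the 8 were called lower in both genotypes. The 5 choroid plexus markers were all called higher in brainstem in both genotypes, with sums of 7731 to 134205 in KO-labelled libraries and 74608 to 360593 in controls. In olfactory bulb 3 of the 5 were called lower among KO-labelled libraries and 5 among controls, and in hippocampus 0 were called among KO-labelled libraries and 3, all higher, among controls. Folr1 was at 0 in 10 libraries and Prlr in 5. Of 6 neuroblast markers tested, 1 was called higher and 1 lower in olfactory bulb among KO-labelled libraries, and 2 higher and 1 lower among controls. There Dcx had 218, 322 and 337 normalised reads in OB KO-labelled libraries and 421, 370.2 and 272 in controls. The part of these lists, of Rn45s or of depth in the neuronal differences was not tested.

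**Figure D3:**
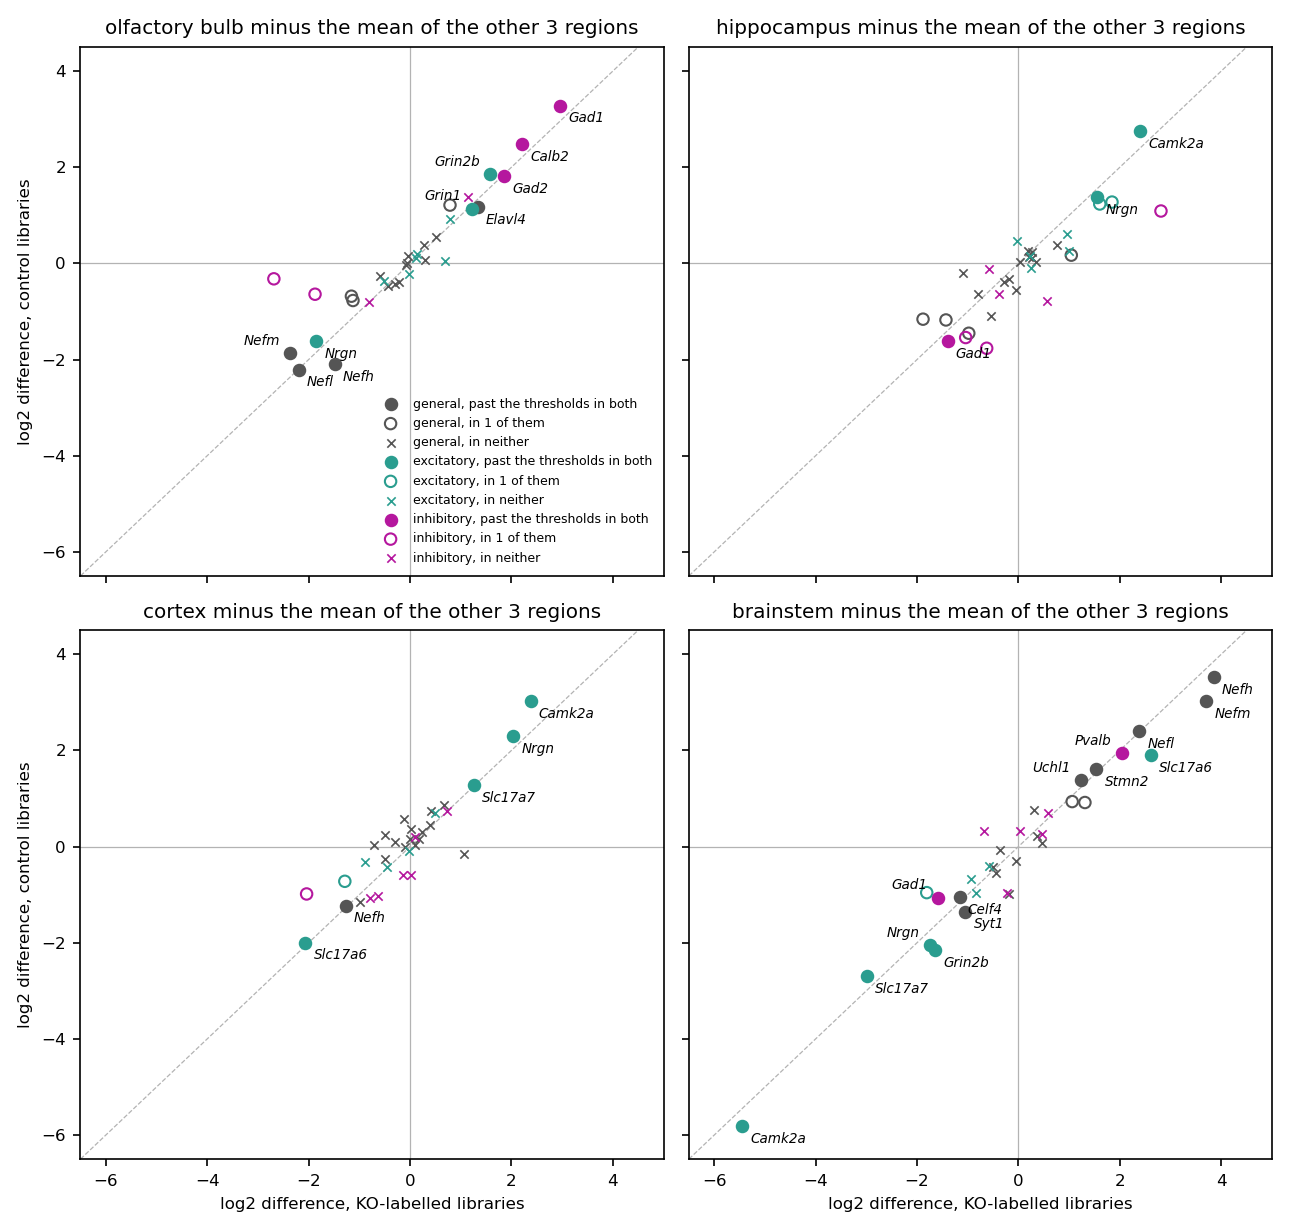
Log2 difference of each region from the mean of the other 3, KO-labelled libraries on the x axis and controls on the y axis, 1 point per gene for 33 genes. Filled points passed both thresholds in both genotypes, open points in 1 and crosses in neither; Camk2a lies at -5.45 and -5.82 in brainstem and Gad1 at 2.96 and 3.28 in olfactory bulb.

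The neurofilaments were the general genes that differed most between regions. They are the light (Nefl), medium (Nefm) and heavy (Nefh) chains of the axonal cytoskeleton. Nefh had 172, 309 and 252 normalised reads in BS KO-labelled libraries and 344, 204 and 214 in BS controls. In olfactory bulb it had 10.2, 4.15 and 19.98 in KO-labelled libraries and 11.02, 3.22 and 14.2 in controls. Every brainstem library was above every library of the other regions, where the highest was 43.2. The brainstem log2 difference was 3.85 (SE 0.35, adjusted p = 2.37e-09) among KO-labelled libraries and 3.52 (SE 0.35, adjusted p = 1.37e-08) among controls. In hippocampus Nefh had 7.73, 12.8 and 23.0 in KO-labelled libraries and 43.2, 25.03 and 28.2 in controls, and in cortex 13.6, 13.5 and 9.08 in KO-labelled libraries and 16.2, 21.4 and 12.4 in controls. Cortex was called lower in both genotypes (-1.27 among KO-labelled libraries and -1.23 among controls), with the call lost without CX KO-labelled library 3 (adjusted p = 0.193, limma) and without CX control 3 (0.186). Across all left-out libraries the losses of Nefh in cortex had adjusted p of 0.0555 to 0.193 among KO-labelled libraries and 0.0513 to 0.186 among controls.

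Nefl had 288, 452 and 446 normalised reads in BS KO-labelled libraries and 480, 314 and 499 in BS controls, above every other library. The olfactory bulb was at the other end, with 42.7, 13.8 and 47.5 in KO-labelled libraries and 37.5, 32.2 and 32.8 in controls. Hippocampus and cortex lay between and overlapped each other: HC had 108, 92.8 and 94.1 in KO-labelled libraries and 109, 141 and 61.9 in controls, and CX had 126, 71.4 and 141 in KO-labelled libraries and 89.8, 105 and 221 in controls. The brainstem difference was 2.39 (SE 0.30, adjusted p = 6.9e-07) among KO-labelled libraries and 2.39 (SE 0.30, adjusted p = 7.71e-07) among controls, and that of olfactory bulb was -2.20 among KO-labelled libraries and -2.21 among controls. Nefm was likewise highest in brainstem. It had 116, 184 and 217 in BS KO-labelled libraries and 184, 128 and 146 in BS controls, and 2.03, 0.692 and 4.995 in OB KO-labelled libraries and 6.61, 8.85 and 6.55 in OB controls. HC, which overlapped OB, had 9.81, 6.11 and 5.38 in KO-labelled libraries and 32.4, 9.27 and 5.19 in controls, and CX had 16.8, 21.2 and 27.2 in KO-labelled libraries and 17.3, 39.1 and 30.9 in controls. Its brainstem difference was 3.70 (SE 0.36) among KO-labelled libraries and 3.02 (SE 0.36) among controls. Nefm was also called lower in KO-labelled hippocampus (-1.43), a call lost without HC KO-labelled library 2 (adjusted p = 0.0931, limma) or 3 (0.106). On mm10 (GENCODE vM21), Nefl spans chromosome 14, 68083863 to 68089095 on the plus strand, and Nefm 68082590 to 68124846 on the minus strand. They share 32.8% of the exonic bases of Nefl and 19.2% of those of Nefm, and the use of strand in counting is not given in the sources used here, so reads in the shared part cannot be assigned. Nefh lies apart, on chromosome 11, 4938754 to 4948064.

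Among the other cytoskeletal genes, Stmn2, a microtubule regulator of growing axons, was higher in brainstem. It had 126, 282 and 217 normalised reads in BS KO-labelled libraries and 162, 154 and 212 in BS controls, above every library of the other regions. HC had 68.5, 112 and 32.6 in KO-labelled libraries and 76.8, 34.3 and 21.9 in controls, and CX had 109, 79.2 and 99.8 in KO-labelled libraries and 48.7, 105 and 99.02 in controls. OB had 37.6, 44.3 and 54.95 in KO-labelled libraries and 71.6, 35.4 and 47.5 in controls. The brainstem difference was 1.53 (SE 0.33, adjusted p = 0.00117) among KO-labelled libraries and 1.60 (SE 0.33, adjusted p = 0.000798) among controls. KO-labelled olfactory bulb was called lower (-1.16), not so without OB KO-labelled library 1 (adjusted p = 0.127, limma) or 2 (0.0834). Its relative Stmn3 was called higher in KO-labelled brainstem (1.06), with 75.8, 96.1 and 57.2 normalised reads there and 37.2, 139.6 and 85.7 in BS controls. That call was lost in 6 of the 12 fits that left out 1 library, with the smallest difference without BS KO-labelled library 2 (0.89, adjusted p = 0.166). Tubb3, the neuronal beta tubulin, was low everywhere (1.85 to 62.1 normalised reads) with the lowest group mean in KO-labelled hippocampus, at 5.01, 4.44 and 5.38, against 32.4, 1.85 and 4.08 in HC controls. It was called lower in KO-labelled hippocampus (-1.88, SE 0.45, adjusted p = 0.00878), a call lost without HC KO-labelled library 2 (0.0596).

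Mapt encodes tau, the axonal microtubule-associated protein. It had 246, 196 and 359.7 normalised reads in OB KO-labelled libraries and 398, 389 and 398 in OB controls. In hippocampus it had 529.8, 606 and 485 in KO-labelled libraries and 685, 846 and 526 in controls. In cortex it had 508, 637 and 594 in KO-labelled libraries and 751, 747 and 758 in controls, and in brainstem 487, 591 and 749 in KO-labelled libraries and 519, 601 and 748 in controls. All 6 olfactory bulb libraries were below all others. KO-labelled olfactory bulb was called lower than the other KO-labelled regions (-1.13, SE 0.16, adjusted p = 1.05e-05); without OB KO-labelled library 2 the difference was -0.93, inside the fold threshold.

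Snap25 was the presynaptic gene called higher in brainstem. It had 1904, 3308 and 2059 normalised reads in BS KO-labelled libraries and 2599, 1752 and 2643 in BS controls. In olfactory bulb it had 1166, 641 and 1585 in KO-labelled libraries and 1397, 1301 and 868 in controls. Hippocampus had 883, 1126 and 477 in KO-labelled libraries and 1341, 1100.3 and 725 in controls, and cortex 1058, 826 and 1209.8 in KO-labelled libraries and 1243, 1519.5 and 1773 in controls. The KO-labelled brainstem libraries were all above the KO-labelled libraries of the other regions, whereas in controls brainstem and cortex overlapped. The brainstem difference was 1.31 (SE 0.28, adjusted p = 0.00217) among KO-labelled libraries, and among controls it was 0.92 (SE 0.28, adjusted p = 0.0275), below the fold threshold.

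Syt1, the calcium sensor of fast release, went the other way. It had 200.3, 171 and 132 normalised reads in BS KO-labelled libraries and 116, 194 and 204 in BS controls. In hippocampus it had 532, 548 and 272 in KO-labelled libraries and 528, 561 and 248 in controls, and in cortex 183, 236 and 259.6 in KO-labelled libraries and 223, 289 and 415 in controls. In olfactory bulb it had 525, 269 and 597 in KO-labelled libraries and 471, 1233 and 461 in controls, where control 2 stood far above the rest. Brainstem was called lower in both genotypes (-1.05 among KO-labelled libraries and -1.35 among controls). Without BS KO-labelled library 3 the KO-labelled difference was -0.89 (adjusted p = 0.14, limma), and without BS control 1 the control difference was -1.10 (0.0796). Control olfactory bulb was called higher (1.21), and without OB control 2 the difference was 0.75 (0.178).

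Of the vesicle proteins, the synapsins were called in no region. Synapsin I (Syn1) ranged over the 24 libraries from 148 to 511 normalised reads and synapsin II (Syn2) from 159 to 399. Synaptophysin (Syp) had 251, 318 and 222 in HC KO-labelled libraries and 140.3, 202 and 145 in HC controls. It was called higher in KO-labelled hippocampus (1.04), a call lost in 8 of 12 fits that left out 1 library, with adjusted p up to 0.237 without HC KO-labelled library 2. Syp shares 16.8% of its exonic bases with an antisense gene model.

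Of the neuronal RNA-binding proteins, Elavl4 (HuD) was highest in olfactory bulb. It had 173, 161 and 156 normalised reads in OB KO-labelled libraries and 143, 122 and 111 in OB controls, above every library of the other regions. The lowest group means were hippocampal, with 44.3, 48.9 and 43.6 in KO-labelled libraries and 30.5, 31.5 and 23.4 in controls. The olfactory bulb difference was 1.33 (SE 0.21, adjusted p = 4.04e-05) among KO-labelled libraries and 1.17 (SE 0.21, adjusted p = 0.000213) among controls, and control hippocampus was called lower (-1.45, SE 0.21, adjusted p = 6.26e-05). Celf4 had 235, 171 and 349 in BS KO-labelled libraries and 288, 206 and 399 in BS controls and was called lower there in both genotypes (-1.16 among KO-labelled libraries and -1.06 among controls). Both calls rest on the fold threshold: the difference was -0.92 without BS KO-labelled library 2, -0.82 without BS control 2 and -0.97 without OB control 2.

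Rbfox3, the splicing factor known as NeuN and a standard nuclear marker of neurons, was low in all regions. It had 69.2, 50.5 and 76.2 normalised reads in OB KO-labelled libraries and 71.6, 105 and 45.9 in OB controls. HC had 57.01, 72.8 and 42.1 in KO-labelled libraries and 57.1, 60.2 and 56.4 in controls. CX had 54.5, 40.5 and 62.6 in KO-labelled libraries and 71.4, 66.8 and 99.02 in controls, and BS 75.8, 30.4 and 51.5 in KO-labelled libraries and 35.1, 22.3 and 40.7 in controls. No regional comparison called it. Uchl1, a ubiquitin hydrolase abundant in neurons, was called higher in brainstem (1.23 among KO-labelled libraries and 1.39 among controls). Its values there were 35.96, 163 and 154 in KO-labelled libraries and 97.9, 105 and 96.5 in controls. The KO-labelled call was lost in 6 of 12 fits, among them without BS KO-labelled library 2 (0.88, adjusted p = 0.237, limma) or 3 (0.92, 0.204), and among controls without BS control 1 (0.0663) or 3 (0.0584). Uchl1 shares 18.1% of its exonic bases with an antisense gene model.

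The excitatory vesicular transporters Slc17a7 (VGLUT1) and Slc17a6 (VGLUT2) mark mostly separate glutamatergic neurons, and both lie on chromosome 7 (mm10, plus strand, 45163949 to 45176142 and 51622006 to 51671119). Their promoter windows, from 250 bases before to 50 after the RefSeq start (GRCm38.p6), are shown because these paralogues ran opposite ways between brainstem and cortex below. No search motif matched in either, so no base is in capitals.
Slc17a7, chr7:45163671-45163970, plus strand: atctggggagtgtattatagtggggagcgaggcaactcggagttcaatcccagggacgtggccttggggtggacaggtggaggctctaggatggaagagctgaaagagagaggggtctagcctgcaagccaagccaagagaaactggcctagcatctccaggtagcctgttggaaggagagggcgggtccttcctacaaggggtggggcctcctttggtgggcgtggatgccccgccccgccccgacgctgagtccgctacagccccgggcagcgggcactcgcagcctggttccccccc
Slc17a6, chr7:51621580-51621879, plus strand: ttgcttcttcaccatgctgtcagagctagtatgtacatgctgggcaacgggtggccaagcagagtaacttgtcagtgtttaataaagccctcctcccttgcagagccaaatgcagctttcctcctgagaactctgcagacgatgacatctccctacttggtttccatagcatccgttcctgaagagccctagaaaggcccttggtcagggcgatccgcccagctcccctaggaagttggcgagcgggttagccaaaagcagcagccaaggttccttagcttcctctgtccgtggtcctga
The motifs searched on both strands were the cAMP response element TGACGTCA, an RE1-like core whose letters are the capitals of the Gad2 window below with any base at its middle positions, a TATA-like TATAAA and the palindrome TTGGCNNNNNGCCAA that nuclear factor I proteins bind. They had matches in 1.79%, 0.0517%, 13.6% and 0.0365% of all 32851 windows, in that order. The Slc17a6 window is the nearer of 2, its start 176 bases from that of GENCODE. Of the 34 genes, 22 had a window, and none of the 22 held the nuclear factor I palindrome.

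Slc17a7 had 30.8, 6.41 and 5.72 normalised reads in BS KO-labelled libraries and 21.3, 14.2 and 10.7 in BS controls. In hippocampus it had 191, 207 and 132 in KO-labelled libraries and 222, 138 and 108 in controls. In cortex it had 121, 143 and 173 in KO-labelled libraries and 111, 144 and 219.7 in controls. Every brainstem library was below every library of the other 3 regions. Olfactory bulb, at 85.4, 47.1 and 119 in KO-labelled libraries and 57.3, 167 and 62.8 in controls, overlapped hippocampus and cortex. The brainstem difference was -3.00 (SE 0.35, adjusted p = 2.74e-07) among KO-labelled libraries and -2.70 (SE 0.35, adjusted p = 1.86e-06) among controls. Slc17a7 was also called higher in cortex (1.25 among KO-labelled libraries and 1.27 among controls) and in KO-labelled hippocampus (1.60). These were less stable: the cortical call was lost in 7 of 12 fits among KO-labelled libraries (adjusted p up to 0.215, without CX KO-labelled library 3). It was lost without CX control 2 (0.104) or 3 (0.226) among controls, and the hippocampal one without HC KO-labelled library 2 (0.0581).

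Slc17a6 ran the opposite way between brainstem and cortex. It had 71.9, 136 and 22.9 normalised reads in BS KO-labelled libraries and 54.3, 56.7 and 66.4 in BS controls, and it was near 0 in cortex, with 1.05, 0 and 1.81 in KO-labelled libraries and 3.25, 2.52 and 4.64 in controls. Olfactory bulb had 8.14, 8.997 and 7.49 in KO-labelled libraries and 5.51, 37.02 and 12.01 in controls, and hippocampus 24.01, 15.0 and 3.58 in KO-labelled libraries and 17.8, 59.3 and 14.1 in controls. The brainstem difference was 2.61 (SE 0.47, adjusted p = 0.000157) among KO-labelled libraries and 1.90 (SE 0.47, adjusted p = 0.0046) among controls. Cortex was called lower in both genotypes (-2.07 among KO-labelled libraries and -2.00 among controls), not so without CX KO-labelled library 2 (adjusted p = 0.0568, limma) or CX control 2 (0.0595). The cortical values rest on at most 3 reads per library, and the fitted differences depend on the constant of 5 added before taking logs.

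Camk2a had the largest called regional difference of all 34 genes. It had 91.2, 94.5 and 28.6 normalised reads in BS KO-labelled libraries and 56.4, 14.2 and 111 in BS controls. In hippocampus it had 4225, 5028 and 3087 in KO-labelled libraries and 5747, 5269 and 2864 in controls. In cortex it had 4027, 3601 and 4409 in KO-labelled libraries and 5168, 4597 and 5618 in controls, and in olfactory bulb 1371, 1303 and 2534 in KO-labelled libraries and 1006, 1374 and 925 in controls. The brainstem libraries lay below all others, olfactory bulb next, and hippocampus and cortex overlapped. The brainstem difference was -5.45 (SE 0.43, adjusted p = 5.7e-08) among KO-labelled libraries and -5.82 (SE 0.43, adjusted p = 2.91e-08) among controls. Hippocampus was called higher (2.39 among KO-labelled libraries and 2.75 among controls), as was cortex (2.38 among KO-labelled libraries and 3.02 among controls). All 6 of these calls held in every alternative that was run.

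Nrgn, the postsynaptic calmodulin-binding neurogranin, was likewise highest in cortex and hippocampus. It had 129.9, 169.9 and 153 normalised reads in CX KO-labelled libraries and 153, 204 and 201 in CX controls, and 123, 106 and 119.5 in HC KO-labelled libraries and 218, 88.1 and 73.4 in HC controls. It had 13.2, 11.1 and 24.98 in OB KO-labelled libraries and 31.96, 20.9 and 10.9 in OB controls, and 6.42, 27.2 and 22.9 in BS KO-labelled libraries and 9.58, 6.07 and 42.9 in BS controls. Hippocampal and cortical libraries were all above olfactory bulb and brainstem, which overlapped. It was called higher in cortex (2.04 among KO-labelled libraries and 2.29 among controls, SE 0.39 each), and lower in brainstem (-1.75 among KO-labelled libraries and -2.05 among controls) and olfactory bulb (-1.85 among KO-labelled libraries and -1.62 among controls). Without OB control 3 the control olfactory bulb call was lost (-1.30, adjusted p = 0.0658, limma). The hippocampal calls (1.55 among KO-labelled libraries and 1.38 among controls) were lost whichever 1 of the 3 HC KO-labelled libraries was left out (up to 0.0789), and among controls in 9 of 12 fits (up to 0.409, without HC control 1).

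The NMDA receptor subunits were called in different regions. Grin2b had its highest group means in olfactory bulb, with 324, 336 and 275 normalised reads in KO-labelled libraries and 236, 381 and 248 in controls, and its lowest in brainstem, with 88.6, 22.4 and 74.3 in KO-labelled libraries and 54.3, 18.2 and 27.9 in controls. Its olfactory bulb difference was 1.58 (SE 0.31, adjusted p = 0.000724) among KO-labelled libraries and 1.85 (SE 0.31, adjusted p = 9.54e-05) among controls, and its brainstem difference -1.65 (SE 0.31) among KO-labelled libraries and -2.16 (SE 0.31) among controls. Grin1, the subunit that every NMDA receptor contains, had 116, 130.1 and 147 in OB KO-labelled libraries and 139, 232 and 111 in OB controls and was called higher there (1.23 among KO-labelled libraries and 1.14 among controls). Without OB control 2 the control difference was 0.84 (adjusted p = 0.192, limma), and without OB KO-labelled library 2 or 3 the KO-labelled call had 0.0544 or 0.069. Grin1 was called lower in KO-labelled cortex (-1.29), lost without CX KO-labelled library 1 (0.12) or 2 (0.181). Grin1 shares 13.5% of its exonic bases with an antisense gene model. Grin2a had 90.4, 123 and 57.1 in HC KO-labelled libraries and 71.1, 124 and 52.7 in HC controls. It was called higher in KO-labelled hippocampus (1.84; without HC KO-labelled library 1 or 2 adjusted p was 0.0712 or 0.145) and lower in KO-labelled brainstem (-1.81; without BS KO-labelled library 3 it was -1.08, 0.123). The kinase subunit Camk2b (132 to 456 normalised reads over 24 libraries) and the scaffold Dlg4, which encodes PSD-95 (252 to 755), were called in no region.

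**Figure D4:**
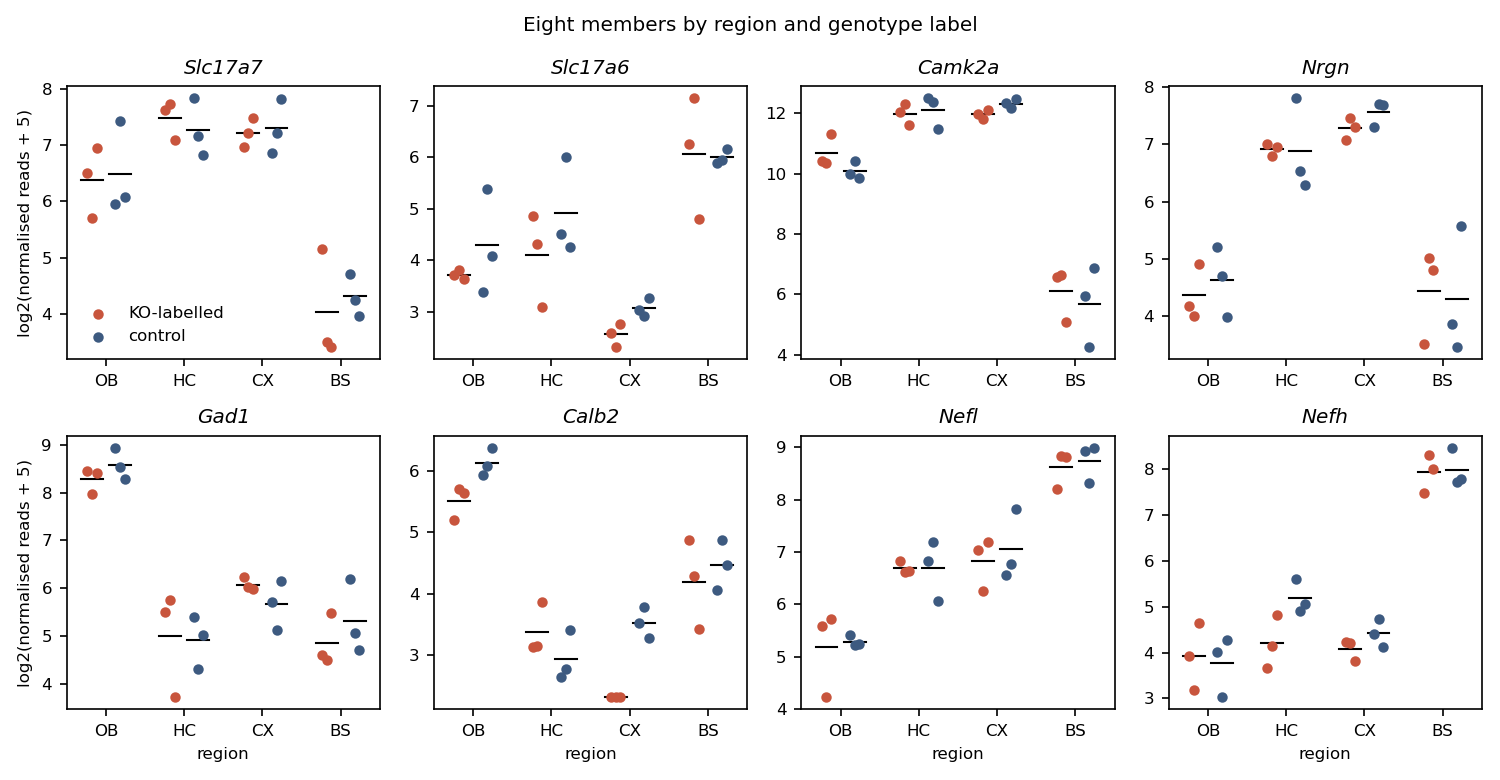
Levels of Slc17a7, Slc17a6, Camk2a, Nrgn, Gad1, Calb2, Nefl and Nefh as log2(normalised reads + 5), by region, with KO-labelled libraries left of controls; dots are single libraries and lines group means (n = 3). Slc17a7 was 5.72 to 30.8 and Slc17a6 22.9 to 136 in the brainstem libraries, whereas in cortex Slc17a7 was 111 to 219.7 and Slc17a6 at most 4.64.

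The inhibitory genes that make and load GABA are Gad1 (GAD67), Gad2 (GAD65) and Slc32a1, the vesicular GABA and glycine transporter. Promoter windows are shown for Gad1 and Gad2, because both were called higher in olfactory bulb in both genotypes, and for the interneuron peptide Sst, because it had the smallest unadjusted p of a single region below. Capitals mark motif matches: TATAAA as its reverse complement in Gad1, the RE1-like core in Gad2 and the cAMP response element in Sst. RE1 is the element bound by the repressor REST, which represses neuronal genes in non-neuronal cells. A match is a match of letters and was not tested for binding.
Gad1, chr2:70561879-70562178, plus strand: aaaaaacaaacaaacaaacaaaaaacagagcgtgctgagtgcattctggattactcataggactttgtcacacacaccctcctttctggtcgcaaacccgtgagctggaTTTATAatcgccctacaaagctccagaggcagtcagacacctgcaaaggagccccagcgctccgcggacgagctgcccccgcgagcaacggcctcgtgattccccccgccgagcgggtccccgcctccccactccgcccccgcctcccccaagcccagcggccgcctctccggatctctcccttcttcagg
Gad2, chr2:22622077-22622376, plus strand: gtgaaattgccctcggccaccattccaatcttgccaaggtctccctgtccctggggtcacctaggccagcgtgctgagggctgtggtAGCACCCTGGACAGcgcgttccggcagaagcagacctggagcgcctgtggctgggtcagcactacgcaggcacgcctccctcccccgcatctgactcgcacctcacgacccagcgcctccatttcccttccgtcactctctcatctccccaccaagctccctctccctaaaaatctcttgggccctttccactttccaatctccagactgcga
Sst, chr16:23890795-23891094, minus strand: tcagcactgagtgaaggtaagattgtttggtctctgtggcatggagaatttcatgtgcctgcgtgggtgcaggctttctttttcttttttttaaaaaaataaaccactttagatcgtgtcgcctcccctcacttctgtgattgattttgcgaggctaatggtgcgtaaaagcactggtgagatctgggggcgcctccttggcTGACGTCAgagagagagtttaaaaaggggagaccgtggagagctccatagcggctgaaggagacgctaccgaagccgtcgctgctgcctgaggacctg
The RefSeq start of the Gad1 window lies 9057 bases inside the GENCODE gene (chromosome 2, 70553072 to 70602014). Gad2 (chromosome 2, 22622205 to 22693874) and Sst (chromosome 16, 23889573 to 23890958) start inside their windows.

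Gad1 had 347, 245 and 336 normalised reads in OB KO-labelled libraries and 481, 368 and 305 in OB controls. Cortex had 70.2, 59.9 and 58.1 in KO-labelled libraries and 47.6, 30.2 and 66.5 in controls. Hippocampus had 40.7, 49.4 and 8.36 in KO-labelled libraries and 37.5, 14.8 and 27.4 in controls, and brainstem 19.3, 17.6 and 40.03 in KO-labelled libraries and 68.1, 28.3 and 21.4 in controls. All olfactory bulb libraries were above all others, whose ranges overlapped. The olfactory bulb difference was 2.96 (SE 0.36, adjusted p = 7.01e-07) among KO-labelled libraries and 3.28 (SE 0.36, adjusted p = 1.29e-07) among controls. Gad1 was called lower in brainstem (-1.59 among KO-labelled libraries and -1.06 among controls) and hippocampus (-1.40 among KO-labelled libraries and -1.61 among controls). Among controls the brainstem call was lost in 8 of 12 fits (adjusted p up to 0.266, without BS control 3) and the hippocampal one without HC control 2 (0.118). Without HC KO-labelled library 3 the KO-labelled hippocampal difference was -0.77 (0.353).

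Gad2 was also highest in olfactory bulb, with 305, 248 and 279 normalised reads in KO-labelled libraries and 397, 396 and 306 in controls. Brainstem had 103, 38.5 and 85.8 in KO-labelled libraries and 121, 289 and 129 in controls, where control 2 came within the olfactory bulb range. Hippocampus had 62.4, 82.8 and 35.5 in KO-labelled libraries and 103, 48.2 and 41.9 in controls, and cortex 169, 96.5 and 49.9 in KO-labelled libraries and 90.8, 98.3 and 115 in controls. The olfactory bulb difference was 1.86 (SE 0.33, adjusted p = 0.000183) among KO-labelled libraries and 1.81 (SE 0.33, adjusted p = 0.000232) among controls. Control hippocampus was called lower (-1.54), not so without HC control 2 (adjusted p = 0.0634, limma) or 3 (0.0709).

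Slc32a1 was low in all regions and was not called in any. It had 39.7, 19.4 and 54.95 normalised reads in OB KO-labelled libraries and 33.1, 78.1 and 31.7 in OB controls. It had 19.4, 8.33 and 13.4 in HC KO-labelled libraries and 26.7, 7.42 and 7.79 in HC controls. In cortex it had 6.29, 15.4 and 9.08 in KO-labelled libraries and 10.8, 5.04 and 10.8 in controls, and in brainstem 16.7, 27.2 and 11.4 in KO-labelled libraries and 3.19, 52.6 and 42.9 in controls. Slc32a1 shares 24.9% of its exonic bases with an antisense gene model.

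Calcium-binding proteins and peptides divide interneurons into classes. Calb2 (calretinin) had 31.5, 47.1 and 44.96 normalised reads in OB KO-labelled libraries and 56.2, 62.8 and 77.5 in OB controls, above every library of the other regions. It was at 0 in all 3 CX KO-labelled libraries, against 6.49, 8.82 and 4.64 in CX controls, and had 3.76, 3.89 and 9.56 in HC KO-labelled libraries and 1.27, 1.85 and 5.56 in HC controls. Brainstem had 24.4, 14.4 and 5.72 in KO-labelled libraries and 11.7, 24.3 and 17.1 in controls. The counts above include Calb2 as higher in olfactory bulb in both genotypes, and as lower in KO-labelled cortex and in control hippocampus, the hippocampal call being lost without HC control 1. Pvalb (parvalbumin) had 19.3, 11.2 and 28.6 in BS KO-labelled libraries and 41.5, 22.3 and 10.7 in BS controls, with at most 12.05 elsewhere, so that brainstem control 3 and KO-labelled library 2 overlapped the rest. The counts above include it as higher in brainstem in both genotypes.

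Sst (somatostatin) was highest in hippocampus, with 163, 151 and 57.1 normalised reads in KO-labelled libraries and 86.3, 54.7 and 27.8 in controls. In cortex it had 16.8, 25.1 and 30.9 in KO-labelled libraries and 7.57, 83.2 and 35.6 in controls, and in brainstem 8.99, 32.04 and 22.9 in KO-labelled libraries and 10.6, 24.3 and 10.7 in controls. Olfactory bulb had 2.03, 0 and 3.75 in KO-labelled libraries and 26.4, 34.6 and 10.9 in controls. Among KO-labelled libraries hippocampus was called higher (2.81, SE 0.47, adjusted p = 0.000244) and olfactory bulb lower (-2.69, SE 0.47, adjusted p = 0.000162), whereas no control region was called. Calb1 (calbindin) was at 0 in all 3 OB KO-labelled libraries, against 7.71, 28.2 and 0.546 in OB controls. KO-labelled olfactory bulb was called lower for it (adjusted p = 0.0238, limma), a call lost whichever 1 of the 3 libraries was left out (0.0824 to 0.0927). Vip had at most 19.0 normalised reads in any library and was at 0 in all 3 BS KO-labelled libraries, against 0, 4.05 and 0 in BS controls.

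Within a region, the KO-labelled libraries were then set against the controls on the deposited scale, with adjustment over 12670 genes. No neuronal gene was called in any of the 4 regions by limma. In all, 0 of 33 were called where the share of all genes called was 0.0868% for OB, 2.51% for HC, 0.324% for CX and 0.773% for BS. At an unadjusted p under 0.05 there were 3 genes in OB, 2 in HC, 1 in CX and 1 in BS. With edgeR no gene was called (4, 2, 1 and 1 at an unadjusted p under 0.05, in the same order of regions). DESeq2 called Sst in olfactory bulb and Calb2 in cortex and none elsewhere (4, 3, 1 and 1). The 95% intervals of the log2 differences had a median half-width of 0.84 and ran from 0.33 for Map2 to 1.38 for Calb1. These widths are unadjusted and are not the limit of detection. For the genes at an unadjusted p under 0.05 the interval left out 0, and limma still did not call them. Changes larger than these widths could therefore be missed too with 3 libraries a group.

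In olfactory bulb the genes nearest to a call were lower. Sst, whose values are given above with the regions, missed the threshold with a difference of -2.01 (SE 0.57, adjusted p = 0.268), where edgeR gave an adjusted p of 0.149 and DESeq2 one of 0.0122. The 3 OB KO-labelled libraries had 3.75 normalised reads at most and the 3 controls 10.9 at least, so the fitted difference depends on the constant of 5 added before taking logs. Mapt differed by -0.60 (SE 0.20, adjusted p = 0.517) and Calb1, at 0 in the KO-labelled libraries, had an adjusted p of 0.932. All 7 inhibitory genes tested had negative differences in olfactory bulb, with a median of -0.391 log2 beside -0.00832 over all genes tested, and 0 of the 7 were called. Of all 33 genes, 8 were positive and 25 negative. Markers of other cells had negative differences too: all 7 microglial markers (median -0.70; summed 1369 to 1977 normalised reads in KO-labelled libraries and 1521 to 3860 in controls), all 8 oligodendrocyte markers (-0.436; 8902 to 14029 and 9656 to 16066, in the same order) and all 6 endothelial markers (-0.18; 561 to 1073 and 477 to 1604). None of these markers was called or at 0 in any library, and their part in the result was not tested. OB KO-labelled library 3, the 1 with 20.8% Rn45s, was the highest of its group for 23 of the 33 genes, and OB control 2 for 18. The libraries of both genotypes did not overlap for 7 of 33 genes, where 14% of all genes did not: Elavl4 was above, and Nefm, Mapt, Gad2, Calb1, Calb2 and Sst were below.

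In hippocampus 20 genes had positive and 13 negative differences, with a median of 0.0854 beside 0.000569 over all genes. Elavl4 had 44.3, 48.9 and 43.6 normalised reads in HC KO-labelled libraries and 30.5, 31.5 and 23.4 in HC controls, without overlap, and a difference of 0.60 (SE 0.26, adjusted p = 0.271). Nefh, also without overlap but lower, differed by -0.97 (SE 0.43, adjusted p = 0.291). The genotypes did not overlap for 3 of 33 genes, Syp being the third, below the 20.2% of all genes. HC KO-labelled library 3 was the lowest of its group for 24 of the 33 genes and HC control 3 for 27. All 5 choroid plexus markers (median -4.83) and all 8 oligodendrocyte markers (-0.79) had negative and all 10 astrocyte markers (0.408) positive differences, and their part here was not tested.

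In cortex all 9 excitatory genes had negative differences, with a median of -0.28 beside -0.000219 over all genes, and 0 of the 9 were called. Camk2a had 4027, 3601 and 4409 normalised reads in CX KO-labelled libraries and 5168, 4597 and 5618 in CX controls, a difference of -0.35 (SE 0.52, adjusted p = 1). Dlg4 differed by -0.29 (SE 0.19, adjusted p = 0.987) and Slc17a6 by -0.43 (adjusted p = 1, limma). Over all classes 8 of 33 differences were positive and 25 negative. KO-labelled libraries lay wholly below controls for 7 of 33 genes, where 14.4% of all genes did not overlap: Snap25, Mapt, Rbfox3, Slc17a6, Camk2a, Dlg4 and Calb2. Calb2, at 0 in the KO-labelled libraries, had an adjusted p of 0.774 with limma, 0.0561 with edgeR and 0.0405 with DESeq2. Outside the list, 5 further excitatory genes were tested. All 5 were negative in hippocampus (median -0.284), 4 were in brainstem and 2 in olfactory bulb. In cortex these 5 were all negative too (median -0.386). So were all 5 choroid plexus markers (-1.66; summed 1060.1 to 11718 normalised reads in KO-labelled libraries and 3121 to 93168 in controls), whereas all 6 endothelial (0.96) and all 6 neuroblast markers tested (0.631) were positive. The part of these markers was not tested. CX control 3 was the highest control for 22 of the 33 genes. CX KO-labelled library 1 stood apart in the neuroblast marker Dcx, at 603 normalised reads against 41.6 to 86.9 in the other 5 cortical libraries.

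In brainstem Gad2 was the gene nearest to a call. It had 103, 38.5 and 85.8 normalised reads in BS KO-labelled libraries and 121, 289 and 129 in BS controls, and differed by -1.18 (SE 0.40, adjusted p = 0.151). It was the only 1 of 33 genes whose libraries did not overlap, where 11% of all genes did not. Over all 33 genes 13 differences were positive and 20 negative, with a median of -0.0401 beside -0.00651 over all genes. The excitatory marker Slc17a6 had 71.9, 136 and 22.9 in KO-labelled libraries and 54.3, 56.7 and 66.4 in controls, a difference of 0.07 (SE 0.57, adjusted p = 0.978). All 5 choroid plexus markers (median -1.97) had negative and 9 of 10 astrocyte markers (0.43) positive differences, and their part was not tested. BS KO-labelled library 3 had the fewest reads of all libraries, and 1 read was worth 5.72 normalised reads in it.

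**Figure D5:**
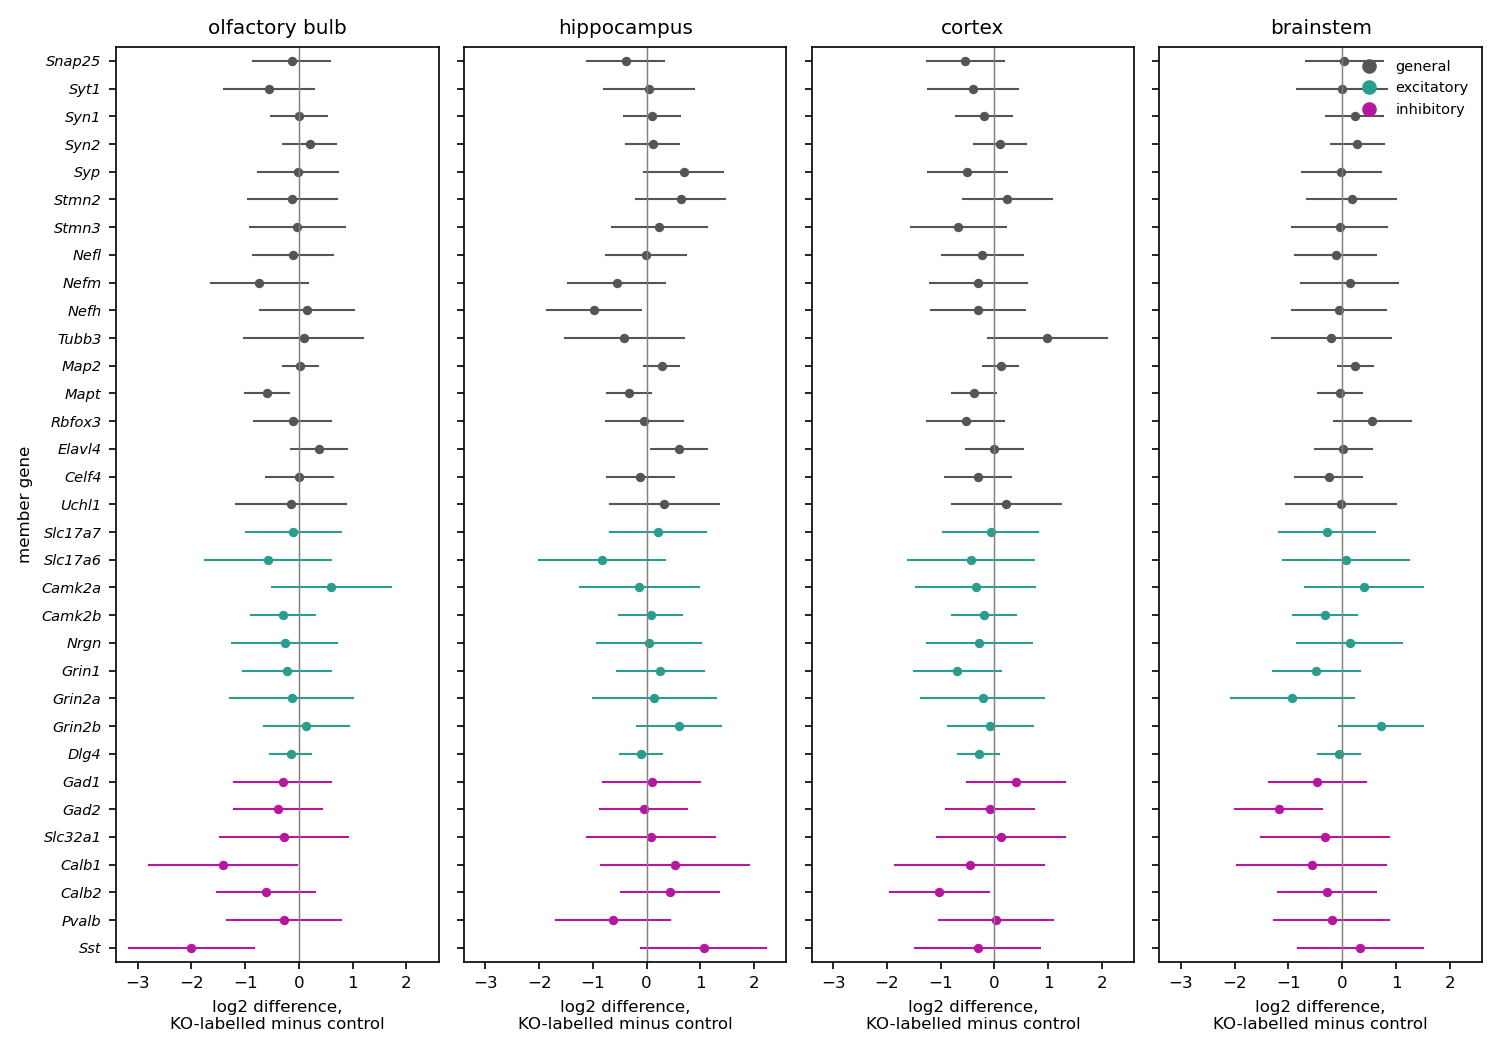
Log2 difference of KO-labelled minus control libraries for the 33 tested genes, 1 panel per region, with 95% intervals from limma. No gene passed an adjusted p of 0.05 in any panel; Sst in olfactory bulb lies at -2.01 and Gad2 in brainstem at -1.18.

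Averaged over the 4 regions, 1 of 33 genes was called, below the 5.87% of all genes tested (3.09% in the lower direction). Mapt fell by 0.33 on the log2 scale (SE 0.10, limma, adjusted p = 0.044), with an adjusted p of 0.0378 by edgeR and 0.0264 by DESeq2. Its differences were -0.60 for OB, -0.32 for HC, -0.37 for CX and -0.04 for BS, smallest in brainstem. The call was lost in 17 of 24 fits that left out 1 library. The difference then stayed between -0.34 and -0.28, and the adjusted p reached 0.0974 without OB KO-labelled library 2. Map2 was called in the other direction only when BS control 2 was left out (0.21, adjusted p = 0.0437; 0.17 and 0.257 with all libraries). All 7 inhibitory genes had negative averages, with a median of -0.269 beside -0.00737 over all genes, and none was called. Of 6 further inhibitory genes tested outside the list, 4 averages were positive and 2 negative (median 0.0385). All 8 oligodendrocyte (-0.256) and all 7 microglial markers (-0.262) had negative averages as well, with 1 and 0 called. So had all 5 choroid plexus markers (-2.21), of which 4 were called. Positive averages were found for all 6 endothelial markers (0.146, 0 called) and for 8 of 10 astrocyte markers (0.206, 3 called higher). The part of these markers was not tested. Over all 33 genes, 10 averages were positive and 23 negative. No gene differed between regions in its KO-labelled against control difference by the limma F test of 3 contrasts (0 of 33, where 0.0552% of all genes passed; Sst had an adjusted p of 0.358, 0.254 by edgeR and 0.0186 by DESeq2).

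A second set of 79 neuronal genes outside the list gave a wider view of the same categories. It held further presynaptic, postsynaptic, channel, pan-neuronal, inhibitory, excitatory and transmitter genes, and 68 passed the filter on the joint scale. Whether any of them passed only through the region where it was high was not checked. A regional call of such a gene follows in part from the filter, so the calls of this set are a description. The 7 transmitter genes, Th and Slc5a7 among them, summed to at most 20 normalised reads in hippocampal libraries and 58 in cortical ones. In olfactory bulb 17 of 68 were called among KO-labelled libraries (9 higher and 8 lower), where 7.04% of all tested genes were. Among controls 19 were called (12 higher and 7 lower), where 8.58% of all tested genes were. The largest increase was that of Npy, neuropeptide Y, which had 631, 586 and 714 normalised reads in OB KO-labelled libraries and 950, 619 and 729 in OB controls. Its difference was 5.13 among KO-labelled libraries and 6.20 among controls. Th, the dopamine-synthesising tyrosine hydroxylase of periglomerular cells (2.34 among KO-labelled libraries and 2.53 among controls), and Dlx1, a factor of GABAergic interneuron development (2.18 and 2.47, in the same order of genotypes), were higher too. Cck was called among the 4 largest in KO-labelled libraries (2.04) and Dlx5 in controls (2.36). The largest decreases were Rph3a, a presynaptic vesicle protein (-3.35 among KO-labelled libraries and -3.49 among controls), and Neurod2 (-1.67 and -1.82), with Thy1 (-1.87) and Rims1 (-1.80) among KO-labelled libraries and Prox1 (-2.58) and Neurod6 (-1.90) among controls.

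In hippocampus 7 of 68 were called among KO-labelled libraries (5 higher and 2 lower), where 3.03% of all tested genes were. Among controls 7 were called (4 higher and 3 lower), where 1.73% of all tested genes were. Neurod6, a transcription factor of pyramidal neurons, was the most raised in both (2.81 among KO-labelled libraries and 2.76 among controls). Sv2b (1.81) and Rims1 (1.33) were also higher among KO-labelled libraries. Neurod2 (1.72) and Prox1, a marker of dentate granule cells (1.39), were also higher among controls. The lower ones were Dlx1 (-1.62) and the potassium channel Kcnc1 (-1.05) among KO-labelled libraries. Among controls they were Npy (-2.24), Kcnc1 (-1.59) and Snhg11 (-1.52).

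In cortex 15 of 68 were called among KO-labelled libraries (9 higher and 6 lower), where 2.89% of all tested genes were. Among controls 12 were called (11 higher and 1 lower), where 3.49% of all tested genes were. Tbr1, a transcription factor of cortical projection neurons, was higher in both, by 2.35 among KO-labelled libraries and 2.51 among controls. Rims1, an active zone protein, differed by 2.05 among KO-labelled libraries and 2.05 among controls, where Stx1a (2.07) was also higher. Erbb4, a receptor of interneurons, was lower in both (-1.66 among KO-labelled libraries and -1.51 among controls). The granins Chgb (-2.22) and Scg2 (-1.93) and Npy (-1.60) were also lower among KO-labelled libraries.

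In brainstem 17 of 68 were called among KO-labelled libraries (7 higher and 10 lower), where 10.6% of all tested genes were. Among controls 21 were called (9 higher and 12 lower), where 9.81% of all tested genes were. Slc5a7, the choline transporter of cholinergic neurons, was higher (2.04 among KO-labelled libraries and 1.66 among controls), as were Erbb4 (2.26 and 1.81, in the same order) and Rph3a (1.73 and 1.56). Ina, the neurofilament-related internexin, was among the largest in KO-labelled libraries (1.81) and Prox1 in controls (1.42). Tbr1 had no reads in the 3 BS KO-labelled libraries and was called lower there. Cck (-3.41 among KO-labelled libraries and -2.71 among controls) and Celf5 (-2.81 and -2.41) were lower in both, and Npy was among the largest decreases in controls (-2.79). Between genotypes, 0 of the 66 genes tested on the deposited scale were called by limma within any region. In the average 2 rose, where 2.79% of all genes did, the postsynaptic scaffold partner Dlgap1 (0.43, SE 0.08, adjusted p = 0.000849) and Kcnc1 (0.78, SE 0.19, adjusted p = 0.0138).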

How the data were processed

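Per the labels' protocols, RNA was extracted with RNeasy Micro columns and 5 ng went into each NuGEN Trio RNA-Seq library. The submitters' processing notes name FastQC, STAR 2.5.0a, DESeq2 1.20.0 and mm10; the counting tool is not given in the sources used here. The authors deposited normalised signal, 24421 gene names per library. All values were whole reads divided by 1 factor per library, within 0.01 read. Cortical factors were 1.259 to 1.269 times joint factors and the others 0.9939 to 0.9982 times, so regions were compared after joint rescaling (median of ratios, 11534 genes) and genotypes on the deposited scale.

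Genes at 20 or more in at least 3 libraries were fitted as log2(value + 5) in limma 3.58.1 (R 4.3.3; trend, robust, 1 mean per group, 16 residual degrees of freedom, two-sided, Benjamini-Hochberg). Adding 5 reduces the fold changes of low genes. Recovered reads were also tested with edgeR 4.0.16 and DESeq2 1.42.0; other alternatives are given in the closing section. The fit was tested on simulated data. Values are given in every library for the genes of a list of names and for those past a threshold; regional comparisons name every gene called, and of the 79 further neuronal genes up to 4 per comparison and direction. A few of these are not given here. Genes nearest to a call, without overlap or at 0 were chosen after their values were seen. Genes, lists and tests were chosen with earlier results of these data known. Promoters are RefSeq windows (GRCm38.p6), and gene positions are GENCODE vM21.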

Additional observations from a re-analysis of the deposited data

How the results depend on the processing

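Counts of neuronal genes called within a region changed with the tool: DESeq2 called 1 in olfactory bulb, 1 in cortex and 1 by the F test, against 0 each with limma. For the average over regions, leaving out the low-value filter called 0 genes, and leaving out OB control 2, CX KO-labelled library 1 and BS KO-labelled library 3 together, an alternative added after seeing the data, also called 0, against 1. That alternative called 4 genes in KO-labelled cortex against 7, and dropping the fold threshold called 8 in control cortex against 5. In fits without 1 library the counts were 0 within every region and by the F test and 0 to 2 for the average. Among KO-labelled regions they were 9 to 14 in olfactory bulb, 4 to 10 in hippocampus, 3 to 7 in cortex and 13 to 18 in brainstem, and among controls 9 to 13, 3 to 7, 2 to 5 and 12 to 15, in the same order. No direction was reversed under any alternative. Of 83 regional calls, 44 held under every alternative run and 39 were lost under at least 1, of which 35 when a library was left out. No label says what a replicate number shares. KO-labelled and control libraries of a region with the same number had deviations correlated above 0.1 in 5 of 12 pairs (median 0.0624), against 2 of 24 pairs with different numbers (median -0.0366), and 7 of 12 KO-labelled libraries correlated best with their own number. Between 2 regions of a genotype, 10 of 36 same-number pairs passed 0.1 (median 0.00738), against 10 of 72 with different numbers (median -0.0127). Not every pair passed 0.1, so the main fits did not use the numbers to pair libraries. Whether libraries with the same number share an animal was not tested. With the replicate number as a block, the counts were 0 in every region, 1 for the average and 0 by the F test. They were 14, 10, 7 and 17 among KO-labelled and 11, 6, 5 and 14 among control olfactory bulb, hippocampus, cortex and brainstem. The causes were not tested. Depth limits Calb1, Calb2, Pvalb, Sst, Slc17a6 and Vip most, each at a few reads in some groups.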
